A study of Sus scrofa domesticus with 36 samples.

Results

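Back muscle was compared between the 6 pigs whose muscle held the most OAS2 RNA and the 6 whose muscle held the least, 12 of the 18 pigs in the study. RNA sequencing had been run on the longissimus dorsi, the long muscle along the spine, and on subcutaneous backfat of the same 18 pigs, which gives 36 libraries in all. The pigs were crosses of the Danbred 600 and Newsham NC32 lines, as the growth protocol names them. The NC number in the breed labels rises from sample to sample, and whether the pigs differed in line could not be checked. By the study design, tissue was taken 3 weeks after weaning. The labels give the stage weaning and an age, stated with the data processing below, that are at odds with this time. Which of them is right could not be checked. The labels name no treatment. All were commercial animals chosen for slow growth (9 pigs, up to percentile 10) or for growth in percentiles 60 to 70 (9 pigs). The labels give neither the growth class of a pig nor its pair in the study, so their part in any value below was not tested. The groups are therefore not groups of the study. They were chosen on the OAS2 values themselves, so the OAS2 levels in muscle are given as a description, with no test. Every pig is a separate animal, and pigs are named as in the labels (Sample_391 and so on), with the number alone in the figures.

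OAS2 encodes an oligoadenylate synthetase, an enzyme that senses double-stranded RNA and makes the short adenylates that switch on the nuclease RNase L. Like MX1, a dynamin-like GTPase that blocks viruses, it belongs to the genes that type I interferon turns on. Interferons bind receptors that signal through JAK1 and TYK2 to a complex that holds STAT2 and IRF9, which enters the nucleus and drives a large set of antiviral genes, sensors of viral RNA among them. Some of these genes are transcribed at a low level in tissue with no infection.

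OAS2 levels are given as counts-per-million (CPM) of the gene counts in each library. In the high-OAS2 pigs the muscle held 158 CPM in Sample_391, 142 in Sample_572, 122 in Sample_176 and Sample_186, 117 in Sample_911 and 114.2 in Sample_242. In the low-OAS2 pigs it held 54.1 CPM in Sample_735, 50.2 in Sample_77, 46.5 in Sample_656, 35.0 in Sample_491, 28.2 in Sample_731 and 21.4 in Sample_991. The pigs just outside both cuts were Sample_231 at 93.2 CPM, below the high group, and Sample_835 at 62.4 CPM, above the low group. With OAS2 scaled by trimmed-mean factors over the 18 libraries, Sample_231 ranked 6th and Sample_572 7th. The highest 6 then shared 5 pigs with the high group, and the lowest 6 shared all 6 with the low group. Behind these levels stood 590.5 to 895 OAS2 counts per high-OAS2 library and 108 to 257 per low-OAS2 library. Gene counts per library ran between 4827110 and 5647640 in the high-OAS2 group and between 4716540 and 5708760 in the low-OAS2 group, so depth was alike.

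**Figure D1:**
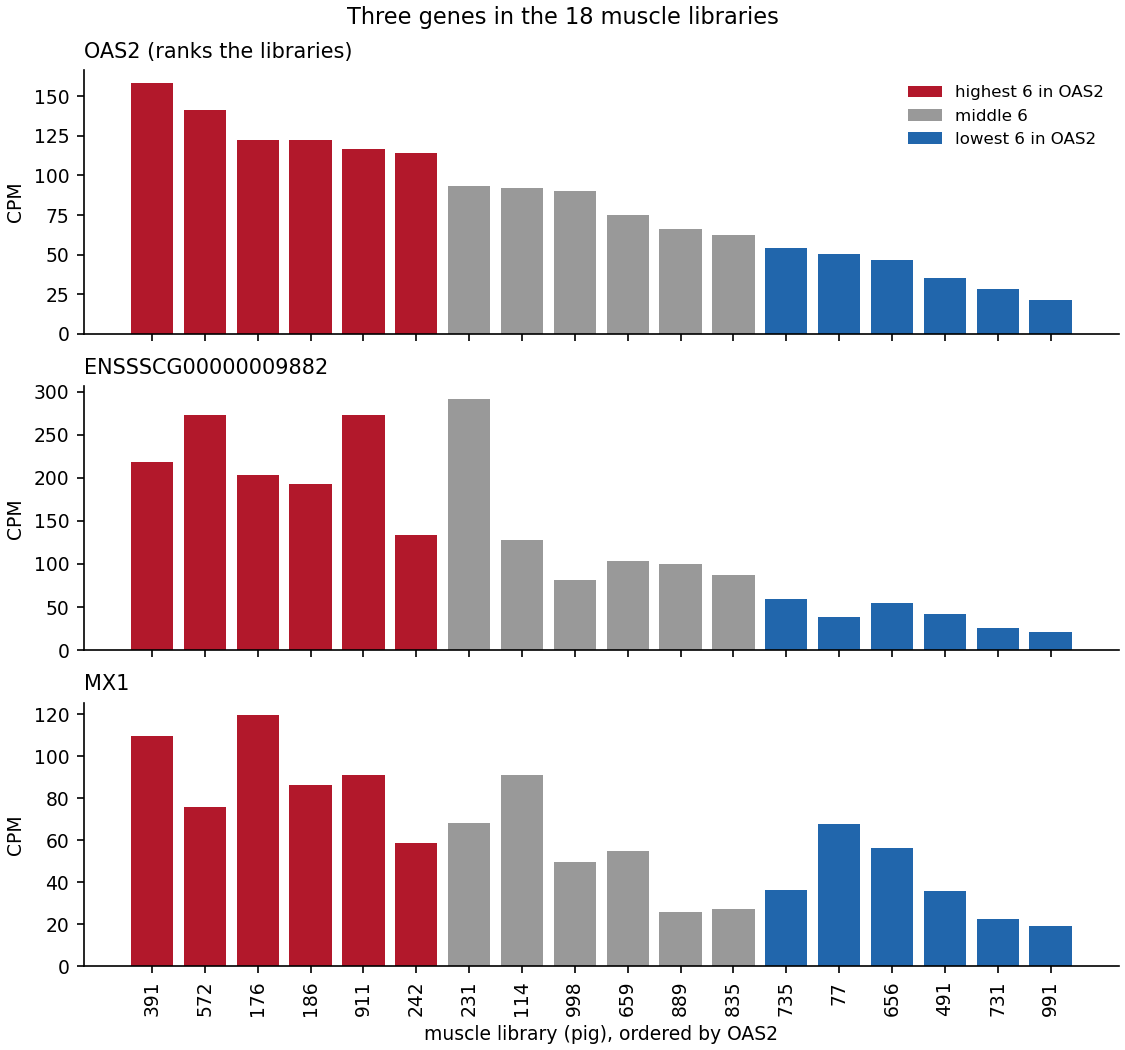
CPM of OAS2, ENSSSCG00000009882 and MX1 (vertical axes) in the 18 muscle libraries, ordered from left to right by OAS2, with the highest 6 in red, the middle 6 in grey and the lowest 6 in blue. ENSSSCG00000009882 lies at 133 CPM or more in all red libraries and at 59.5 CPM or less in all blue ones, while for MX1 Sample_77 of the blue group (67.8 CPM) lies above Sample_242 of the red group (58.6 CPM).

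In each group 1 library stood apart from the rest: Sample_572 (high OAS2) and Sample_735 (low OAS2) lay at one end of the first principal component of all muscle libraries, which held 23.5% of the variance. ACTA1, the skeletal muscle actin, was at 21527 CPM in Sample_572 and 19267 CPM in Sample_735, against 49473 to 156010 CPM in the other 16 muscle libraries. In Sample_572, 34.1% of counts fell in no annotated gene, against 16.1% to 23.9% elsewhere. Muscle identity was otherwise plain, with summed CPM of 13 muscle fibre genes between 67867 and 231479 in the high-OAS2 group and between 76476 and 188036 in the low-OAS2 group. The edgeR counts of genes called between the OAS2 groups were also made without Sample_572 and Sample_735. The DESeq2 counts at 6 against 6, and those from ranking by MX1 or by scaled OAS2, were not.

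Across the genome, few genes passed a test at 6 against 6 libraries, and how many depended on the tool. Counts of called genes are by edgeR unless DESeq2 is named. Of 10478 genes tested besides OAS2, 1 was higher in high-OAS2 muscle (0.00954% of the genes tested) and 0 were lower (0%) by edgeR's quasi-likelihood test with Benjamini-Hochberg adjustment at 0.05. The counts were the same without Sample_572 and Sample_735. At an unadjusted p under 0.05, 278 genes were on the higher side (2.65%) and 190 on the lower side (1.81%). DESeq2 on the same libraries called 27 genes higher (0.323%) and 2 lower (0.0239%) among the 8366 to which it gave an adjusted p. The median log2 difference over the tested genes was -0.01, and 47.6% of them were above 0.

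The gene that rose was ENSSSCG00000009882, which has no symbol in the tables used here. It was at 219 CPM in Sample_391, 274 in Sample_572, 204 in Sample_176, 193 in Sample_186, 273 in Sample_911 and 133 in Sample_242 of the high-OAS2 group. In the low-OAS2 group it was at 59.5 CPM in Sample_735, 37.9 in Sample_77, 54.9 in Sample_656, 42.4 in Sample_491, 25.6 in Sample_731 and 21.2 in Sample_991. The groups did not overlap in CPM. This held for 9 genes on the higher side (0.0859%) and 6 on the lower side (0.0573%) of all tested. The log2 difference was 2.52 (SE 0.217, adjusted p = 0.000123 by edgeR's quasi-likelihood test, n = 6 each). Sample_231, just below the high cut in OAS2, held the most of it of all 18, at 292 CPM. Its rank followed that of OAS2 over the 18 muscle libraries with a Spearman rho of 0.92, a description of libraries that both genes share. Its ID is the next number after that of OAS2 (ENSSSCG00000009881), and whether both genes share reads could not be checked without the genome and annotation used for counting.

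MX1, the second marker of the interferon response, ran the same way, and whether it passed depended on the tool. It was at 110 CPM in Sample_391, 76.0 in Sample_572, 120 in Sample_176, 86.1 in Sample_186, 90.8 in Sample_911 and 58.6 in Sample_242, all of the high-OAS2 group. The low-OAS2 pigs had 36.1 CPM (Sample_735), 67.8 (Sample_77), 56.3 (Sample_656), 35.9 (Sample_491), 22.5 (Sample_731) and 19.2 (Sample_991). Sample_77 lay above Sample_242, and no other pair crossed. The log2 difference was 1.27 (SE 0.329, adjusted p = 0.526 by edgeR's quasi-likelihood test), and DESeq2 gave 1.28 with an adjusted p of 0.0487. Ranked by MX1 in place of OAS2, the highest 6 shared 5 pigs and the lowest 6 shared 4 pigs with the OAS2 groups.

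Next came a list of genes that interferon induces. Of its 67 genes, 41 besides OAS2 have a row in the count table under a matching symbol, and 38 of these passed the filter on low counts. The other 3 were IRF7, listed at 0 in the 12 libraries, HELZ2 with 1 count in all 12, and OASL with 115. By edgeR's quasi-likelihood test 0 of the 38 were called at 6 against 6. DESeq2 gave an adjusted p to 34 of the list and called 11 higher. They were HERC6, MX1, PML, DHX58, UBA7, CMPK2, USP18, EIF2AK2, IRF9, IFIT1 and IFI44. Of all genes with an adjusted p, DESeq2 called 0.323% higher. All 38 had a log2 difference above 0, against 47.6% of all genes tested, and 33 had an unadjusted p under 0.05 on the higher side, against 2.65%. Their median difference was 0.94, from 0.42 for SHFL, which blocks ribosomal frameshifting in viruses, to 1.74 for IFIT1, which binds foreign RNA ends. The groups did not overlap in CPM for 5 of them, DHX58, EIF2AK2, HERC6, IFI44 and USP18, against 0.0859% of all genes tested on the higher side. Overlap was judged without trimmed-mean factors, which ran from 0.793 to 1.405 over the 18 muscle libraries, highest in Sample_572. Overlap after that scaling was not counted. These 38 are the expressed members, measured in the same libraries, and are not independent of each other.

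**Figure D2:**
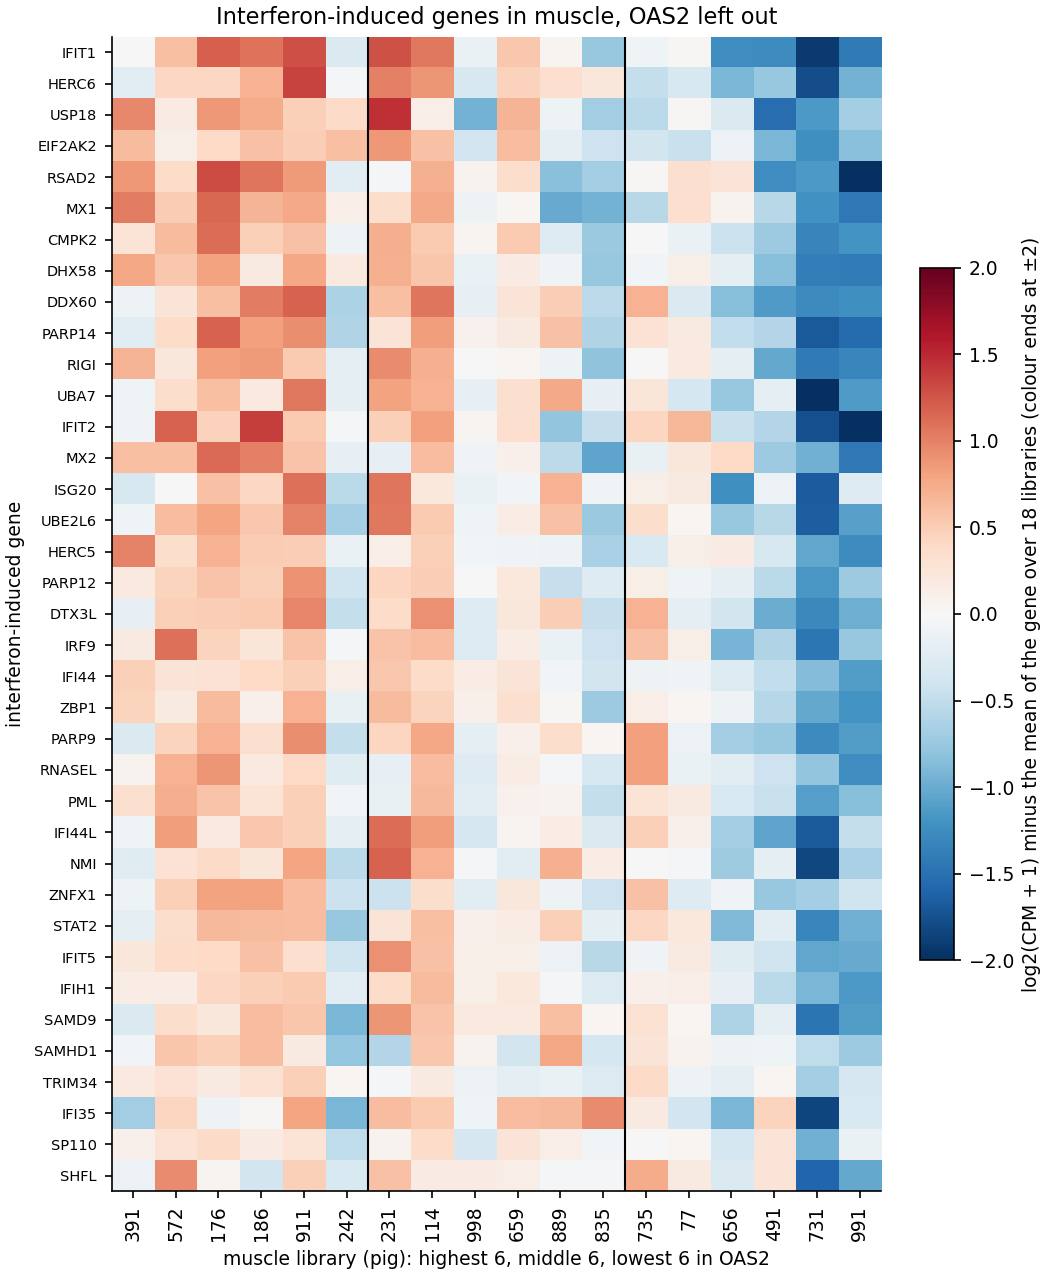
Level of 37 interferon-induced genes (rows, ordered by log2 difference) in the 18 muscle libraries (columns, high-OAS2 pigs left, low-OAS2 pigs right, OAS2 falling from left to right), as log2(CPM + 1) minus the mean of the gene over 18 libraries. Red is above and blue below the mean. Sample_731 and Sample_991 at the far right are blue in nearly every row, Sample_911 is red in every row, and Sample_242 of the high-OAS2 group is blue in most rows.

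Among the genes that destroy or block viral RNA, IFIT1 was at 42.6, 65.5, 99.7, 92.6, 107 and 35.1 CPM in high-OAS2 Sample_391, Sample_572, Sample_176, Sample_186, Sample_911 and Sample_242. In low-OAS2 Sample_735, Sample_77, Sample_656, Sample_491, Sample_731 and Sample_991 it was at 40.3, 43.5, 17.5, 17.4, 10.6 and 15.5 CPM. Sample_391 and Sample_242 thus reached no higher than Sample_77 of the low group, and the difference of 1.74 (SE 0.368) had an adjusted p of 0.265 by edgeR's quasi-likelihood test. RSAD2, the enzyme viperin that makes a chain-ending nucleotide, ran from 33.7 to 98.6 CPM in the high-OAS2 group (median 71.9) and from 8.81 to 49.2 CPM in the low-OAS2 group (median 28.5). CMPK2, a mitochondrial nucleotide kinase encoded beside RSAD2 in mammals, ran from 33.5 to 79.1 CPM (median 52.4) in the high-OAS2 group and from 13.8 to 36.1 CPM (median 23.9) in the low-OAS2 group, with only Sample_242 of the high group below Sample_735 of the low group.

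HERC6, a ligase of the HERC family, was at 64.6 to 194 CPM in high-OAS2 muscle and at 21.4 to 60.5 CPM in low-OAS2 muscle, with no overlap and a log2 difference of 1.45 (SE 0.279, adjusted p = 0.242 by edgeR's quasi-likelihood test). IFI44, a cytoplasmic protein induced by interferon, was at 31.9 to 41.0 CPM in the high-OAS2 group and at 12.8 to 27.7 CPM in the low-OAS2 group, a difference of 0.92 (SE 0.196, adjusted p = 0.265 by the same test). Its mean was 37.1 ± 3.62 CPM in high-OAS2 muscle and 21.2 ± 6.13 CPM in low-OAS2 muscle (SD, n = 6 each). USP18, which strips ISG15 from proteins and damps the interferon receptor, was at 26.4 to 46.7 CPM in the high-OAS2 group and at 7.51 to 23.9 CPM in the low-OAS2 group.

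The sensors of foreign RNA and DNA held genes of both kinds. Of 10 tested, 0 were called by edgeR and 2, DHX58 and EIF2AK2, were called higher by DESeq2, against 0.323% of all genes. The log2 difference was above 0 for 8 of them, and the median log2 difference was 0.69, beside -0.01 over all tested genes. RIGI, a helicase that detects uncapped RNA, was at 47.0 to 97.6 CPM (median 81.7) in high-OAS2 muscle and at 19.5 to 61.6 CPM (median 36.3) in low-OAS2 muscle. DHX58, the related helicase LGP2, was at 18.2 to 28.7 CPM in the high-OAS2 group and at 5.45 to 17.4 CPM in the low-OAS2 group, without overlap, a log2 difference of 1.24 (SE 0.289). EIF2AK2, the kinase PKR that halts translation on double-stranded RNA, was at 6.63 to 10.0 CPM in the high-OAS2 group and at 2.01 to 5.48 CPM in the low-OAS2 group. These 3 genes, IFIH1 and ZBP1 also stand in the list of interferon-induced genes, so the lists overlap. The adaptor MAVS, through which RIGI and IFIH1 signal, lay the other way at 38.5 to 61.7 CPM in the high-OAS2 group and 41.8 to 112 CPM in the low-OAS2 group, a log2 difference of -0.30 (SE 0.161, adjusted p = 0.9997 by edgeR's quasi-likelihood test). TLR7, an endosomal RNA receptor, had a difference of -0.23 (SE 0.331) at a few CPM.

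In the signalling chain, 13 genes were tested, 0 were called by edgeR, and the median log2 difference was 0.77. DESeq2 called 2 of them higher, USP18 and IRF9, against 0.323% of all genes. USP18, IRF9 and STAT2 also stand in the list of interferon-induced genes, and IRF1 in that of interferon gamma below, so these lists overlap. IRF9, a DNA-binding member of the complex that drives interferon-induced genes, was at 66.1 to 145 CPM (median 85.6) in high-OAS2 muscle and at 24.1 to 101 CPM (median 41.5) in low-OAS2 muscle, a difference of 0.93 (SE 0.233). STAT2 had a difference of 0.77 (SE 0.288). Over the 18 muscle libraries the 38 interferon-induced genes had a median rho of 0.67 with OAS2, against -0.06 for all tested genes. The kinases upstream had values near 0, with JAK1 at -0.06 (SE 0.158) and TYK2 at -0.01 (SE 0.116), both with an adjusted p of 0.9997 by edgeR's quasi-likelihood test.

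Of the interferon genes themselves, 3 had a row under a matching symbol, and their RNA was not detectable. IFNB1 had 0.5 counts in all 12 muscle libraries together, and IFNE and IFNK had 0, where 3 counts would have been 0.526 to 0.636 CPM per library, a limit that covers counting error only. Alpha, gamma and lambda interferon genes were not analysed here. The receptor gene IFNGR1 was at 10.9 to 20.3 CPM in high-OAS2 muscle and at 9.28 to 21.8 CPM in low-OAS2 muscle, a log2 difference of 0.05 (SE 0.169).

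Genes that respond chiefly to interferon gamma ran the same way with a wider spread. Of 6 tested, 6 were above 0, 0 were called and the median log2 difference was 0.88. GBP2, a guanylate-binding GTPase, was at 5.95 to 82.0 CPM (median 61.4) in high-OAS2 muscle and at 3.42 to 79.0 CPM (median 22.2) in low-OAS2 muscle, a difference of 1.02 with an SE of 0.649. IRF1, a transcription factor of both interferon responses, was at 9.16 to 102 CPM in the high-OAS2 group and at 6.39 to 72.8 CPM in the low-OAS2 group, a difference of 1.02 (SE 0.588). WARS1, a tRNA synthetase that interferon gamma induces, differed by 0.68 (SE 0.306). For GBP2 and IRF1 the ranges of the groups overlapped over most of their length.

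Genes of antigen presentation overlapped between the groups throughout. In the class I pathway 8 of 8 tested genes were above 0 with a median of 0.36 and 0 called. PSME2, part of the proteasome activator, was at 46.0 to 173 CPM (median 73.3) in high-OAS2 muscle and at 22.8 to 83.5 CPM (median 62.2) in low-OAS2 muscle, a difference of 0.66 (SE 0.319). TAPBP, which loads peptides, differed by 0.43 (SE 0.331), and the chaperones PDIA3 and CALR by 0.17 (SE 0.181) and 0.09 (SE 0.218). In the class II pathway 3 of 6 tested genes were above 0 with a median of -0.09. SLA-DQB1, a class II chain of the pig, was at 29.0 to 79.6 CPM in the high-OAS2 group and at 24.9 to 122 CPM in the low-OAS2 group, a difference of -0.24 (SE 0.299). The protease CTSS differed by -0.28 (SE 0.323), and the peptide loaders SLA-DMB and SLA-DMA by 0.07 (SE 0.320) and 0.06 (SE 0.312), with signs that turned in other settings.

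Markers of macrophages and of T and NK cells mostly had log2 differences below 0, with none called by edgeR or DESeq2. The neutrophil and dendritic lists, with few tested genes, ran the other way. The 2 tested genes of the neutrophil and acute response list, PTX3 and CCL2, were above 0 (median 1.04), as was the 1 tested of dendritic cells, TCF4, at 0.18 (SE 0.155). Of 12 macrophage genes tested, 1 was above 0 and the median log2 difference was -0.48, with none of the 14 in the table at 0 in all 12 libraries. Their summed level was 61.1 to 133 CPM (median 72.3) in the high-OAS2 group and 33.8 to 261 CPM (median 135) in the low-OAS2 group. C1QA, a complement chain made by macrophages, was at 15.9 to 70.4 CPM in high-OAS2 muscle and at 14.0 to 122 CPM in low-OAS2 muscle. MRC1, the mannose receptor, differed by -0.73 (SE 0.319), with an adjusted p of 0.9997 by edgeR's quasi-likelihood test. Of 6 genes of T and NK cells tested, 1 was above 0 and the median was -0.54, and the 18 in the table summed to 18.3 to 120 CPM in the high-OAS2 group and 12.6 to 127 CPM in the low-OAS2 group, with 1 of their 19 IDs (of GZMA) at 0 in all 12 libraries. The 6 genes of B and plasma cells summed to 0.733 to 3.65 CPM (median 1.18) in the high-OAS2 group. In the low-OAS2 group they summed to 0.851 to 13.1 CPM (median 2.31), and none passed the filter. CCL5, a chemokine of T and NK cells, was at 2.29 to 21.6 CPM in high-OAS2 muscle and at 1.49 to 33.4 CPM in low-OAS2 muscle. The part of immune cell numbers in the interferon-induced genes was not tested. In bulk tissue, fewer cells of a type and less RNA per cell cannot be told apart.

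**Figure D3:**
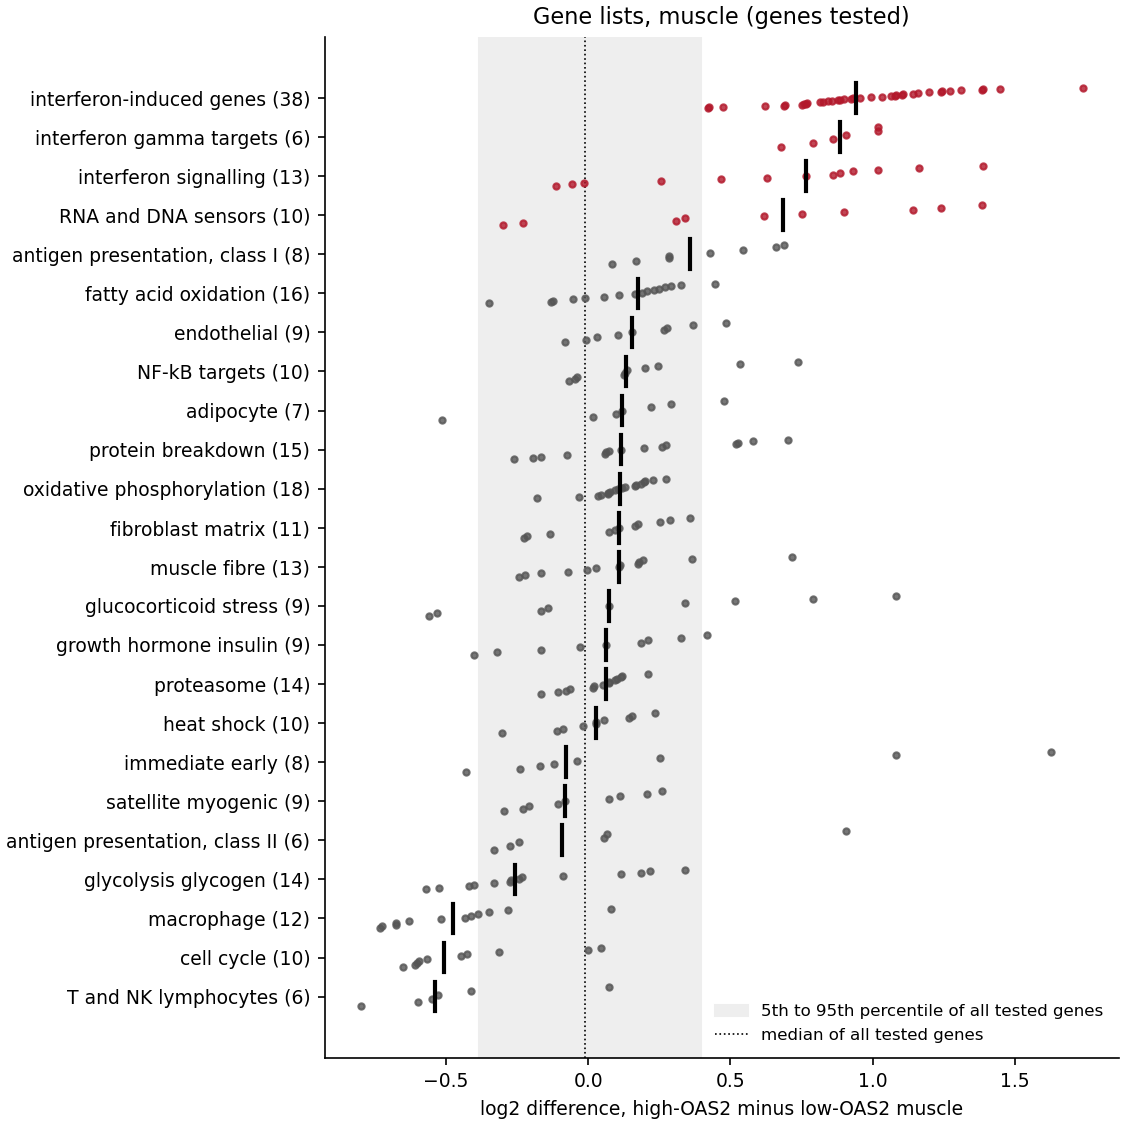
Log2 difference between high-OAS2 and low-OAS2 muscle (horizontal axis) of each tested gene (points) in 24 lists with at least 5 tested genes, sorted by their median (black bars), with the number of genes tested in brackets. The grey band runs from -0.38 to 0.40, the 5th to 95th percentile of all tested genes, the dotted line is their median, and red points are the lists of interferon genes and sensors, with medians of 0.69 to 0.94. The band is the spread of single genes and not that of list medians. The red lists share members, so their medians are not separate results.

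Lists on muscle, metabolism and growth had medians on both sides of that of all genes, which was -0.01. The muscle fibre list had a median of 0.11 (13 tested), oxidative phosphorylation 0.11 (18 tested), fatty acid oxidation 0.18 (16 tested), the proteasome 0.06 (14 tested), growth hormone and insulin signalling 0.06 (9 tested), and glycolysis with glycogen breakdown -0.26 (14 tested). The cell cycle list had a median of -0.51 over 10 tested genes of 16 in the table. None of these lists had a gene called by edgeR or DESeq2. Among named genes of the other lists, PTX3, a soluble pattern receptor of inflamed tissue, had a difference of 1.36 (SE 0.350, adjusted p = 0.526 by edgeR's quasi-likelihood test), and DESeq2 called it higher with an adjusted p of 0.0496. Its value was exceeded by that of NR4A3, an immediate early nuclear receptor, at 1.63 with an SE of 1.09. NR4A3 was at 6.91 to 758 CPM (median 21.8) in high-OAS2 muscle and at 17.0 to 138 CPM (median 33.0) in low-OAS2 muscle, so its medians ran the other way. ATF3, an immediate early transcription factor, had a difference of 1.08 (SE 0.735). It was at 48.8 to 1476 CPM in high-OAS2 muscle and at 60.1 to 349 CPM in low-OAS2 muscle, with a median of 140 CPM in each. VCAM1, an adhesion molecule of vessels, had an adjusted p of 0.526 by edgeR's quasi-likelihood test and a difference of 0.74 (SE 0.193).

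A further comparison used OAS2 as a scale rather than as groups, over all 18 muscle libraries, and asked which genes rise or fall per doubling of OAS2. It was listed as an alternative to the 6 against 6 comparison. Of 9445 genes tested besides OAS2, 26 rose with OAS2 (0.275%) and 5 fell (0.0529%) by edgeR's quasi-likelihood test with Benjamini-Hochberg adjustment. Of the 35 interferon-induced genes tested, 15 were among those that rose: DHX58, CMPK2, IFI44, PML, HERC5, IRF9, RIGI, RSAD2, IFIT1, MX1, EIF2AK2, PARP12, IFIT2, ZBP1 and IFIH1. Per doubling of OAS2, IFIT1 rose by 1.08 on the log2 scale (SE 0.213, adjusted p = 0.0281 by edgeR's quasi-likelihood test), RSAD2 by 0.91 (SE 0.180), MX1 by 0.81 (SE 0.165, adjusted p = 0.0323 by the same test) and IFI44 by 0.58 (SE 0.0977). These calls depended on the pigs lowest in OAS2: without Sample_731, 2 genes rose and 0 of them were on the list, and without Sample_991, 1 rose and 0 were on the list, with 0 genes that fell in either case. Without Sample_176, Sample_186, Sample_491 or Sample_911 in turn, between 7 and 9 genes rose, 3 of them on the list each time, and without Sample_572, 44 rose. Without both Sample_572 and Sample_735, 39 rose, 22 of them on the list, and 10 fell.

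The remaining genes that rose with OAS2 and carry a symbol were chosen for mention after their values were seen. They were TRIM21, a cytosolic antibody receptor and ubiquitin ligase, KHNYN, a nuclease partner of an antiviral zinc finger protein in human cells, OSMR, the oncostatin M receptor, PTN, the growth factor pleiotrophin, GHSR, the ghrelin receptor, ART3, an ADP-ribosyltransferase family member, and PLSCR4, a scramblase family member. ENSSSCG00000009882 and 3 more genes that rose carry no symbol. OSMR was at 13.8 to 22.5 CPM in high-OAS2 muscle and at 7.33 to 14.5 CPM in low-OAS2 muscle, and had an adjusted p of 0.0772 by edgeR's quasi-likelihood test at 6 against 6. GHSR was at 32.0 to 109 CPM (median 77.9) in the high-OAS2 group and at 17.2 to 78.8 CPM (median 41.1) in the low-OAS2 group. Whether the reads counted under this symbol come from the ghrelin receptor gene could not be checked. The genes that fell with OAS2 were NTF4, a neurotrophin, STARD10, a lipid transfer protein, SLC16A3, the lactate exporter MCT4 of glycolytic muscle, SLC16A5, a related transporter, and ENSSSCG00000030553. SLC16A3 was at 93.5, 61.5, 97.1, 130, 119 and 63.7 CPM in high-OAS2 Sample_391, Sample_572, Sample_176, Sample_186, Sample_911 and Sample_242. It was at 120, 169, 126, 190, 210 and 266 CPM in low-OAS2 Sample_735, Sample_77, Sample_656, Sample_491, Sample_731 and Sample_991. Sample_186 of the high group lay above Sample_735 and Sample_656 of the low group, the groups did not cross otherwise, and the slope was -0.55 per doubling of OAS2 (SE 0.109, adjusted p = 0.0281 by the same test).

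The mean CPM of the 6 pigs in the middle of the ranking was set beside the means of the high-OAS2 and the low-OAS2 pigs. It lay between them for 31 of the 38 interferon-induced genes tested (81.6%), against 28.7% of all tested genes. Such a mean does not tell a graded level from a mix of high and low pigs. The 10 genes with a symbol whose rank over the 18 libraries was most like that of OAS2 were DHX58 (rho 0.88), IFI44 (0.87), MX1 (0.83), CMPK2 (0.81), HERC5 (0.81), RIGI (0.79), USP18 (0.79), RSAD2 (0.77), PARP12 (0.76) and EIF2AK2 (0.76). These rho values describe genes in shared libraries and carry no p.

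Single pigs departed from the OAS2 ranking. A score was taken as the mean over the list of log2(CPM + 1) minus the mean of the gene over the 18 muscle libraries. It put Sample_911 first and Sample_991 and Sample_731 last, with scores of 0.71, -0.98 and -1.32. Sample_242, sixth in OAS2, was 13th in this score at -0.28. Sample_114, just below the high group at 92.0 CPM of OAS2, was second at 0.60, and Sample_735, thirteenth in OAS2, was 8th at 0.18. The groups overlapped in the score, with Sample_391 and Sample_242 of the high group below Sample_735 of the low group, and Sample_242 below Sample_77 as well.

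Backfat of the same 12 pigs was not used by the ranking. OAS2 there was at 1143 CPM in Sample_391, 1115 in Sample_572, 1119 in Sample_176, 1281 in Sample_186, 1179 in Sample_911 and 1275 in Sample_242 of the high-OAS2 group. In the low-OAS2 group it was at 861 CPM in Sample_735, 922 in Sample_77, 765 in Sample_656, 556 in Sample_491, 385 in Sample_731 and 284 in Sample_991. All 6 high-OAS2 pigs lay above all 6 low-OAS2 pigs, and the mean of log2(CPM + 1) was higher by 1.03 (two-sided exact permutation p = 0.00216, the smallest that 924 splits allow, n = 6 each). That OAS2 runs together in both tissues of a pig was known when the groups were chosen, so this p is not independent evidence. Sample_231 of the middle group had the highest backfat level of all, 1399 CPM.

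**Figure D4:**
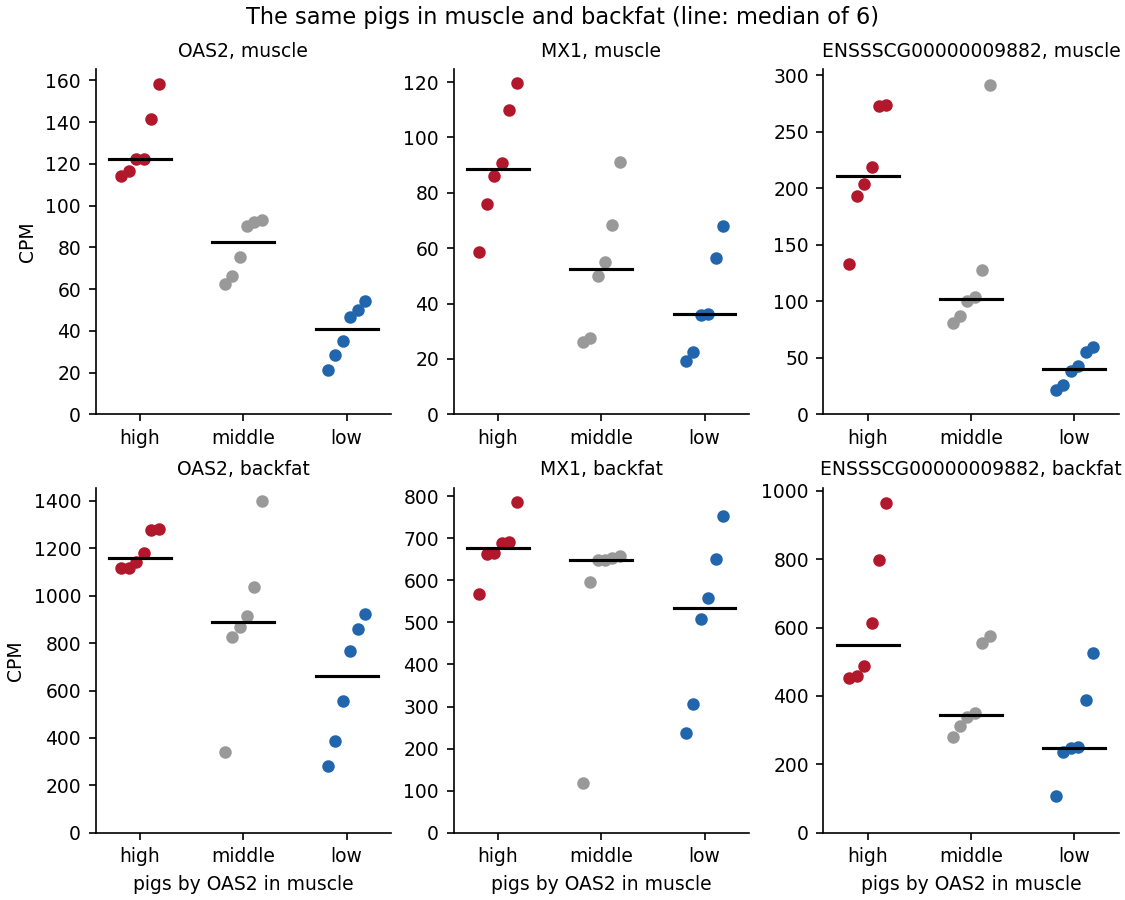
CPM (vertical axes, from 0) of OAS2, MX1 and ENSSSCG00000009882 in muscle (top) and backfat (bottom) of each pig, grouped by OAS2 in muscle into high (red), middle (grey) and low (blue), with the median of 6 as a line. In backfat the red and blue groups do not overlap for OAS2 (1115 to 1281 against 284 to 922 CPM), while they overlap for MX1 and for ENSSSCG00000009882.

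Across the genome no gene passed the edgeR test in backfat. OAS2 itself had a log2 difference of 0.93 there (SE 0.244, adjusted p = 0.9997 by edgeR's quasi-likelihood test). Of 12905 genes tested besides OAS2, 0 were higher (0%) and 0 were lower (0%) by edgeR's quasi-likelihood test, with a lowest adjusted p of 0.9997, and DESeq2 called 0 of them as well. At an unadjusted p under 0.05, 142 genes lay on the higher side (1.1%) and 166 on the lower side (1.29%). Of 39 interferon-induced genes tested in backfat, 36 had a log2 difference above 0, against 44.6% of all genes, with a median of 0.29, and 1, DTX3L, had an unadjusted p under 0.05 on the higher side. The groups did not overlap in backfat for 3 genes on the higher side (0.0232%) and 4 on the lower side (0.031%), with 0 of the 39 among them. MX1 in backfat was at 569 to 786 CPM in the high-OAS2 group and at 238 to 752 CPM in the low-OAS2 group, with Sample_731 and Sample_991 lowest of the 12, a difference of 0.44 (SE 0.238). ENSSSCG00000009882 was at 454 to 965 CPM in high-OAS2 pigs and at 108 to 526 CPM in low-OAS2 pigs, a difference of 1.10 (SE 0.333, adjusted p = 0.9997 by edgeR's quasi-likelihood test). A difference between the tissues in these effects was not tested. Backfat libraries carried muscle RNA in part: ACTA1 was at 184 to 11006 CPM in the high-OAS2 pigs and at 84.7 to 24309 CPM in the low-OAS2 pigs, highest in Sample_731, and its part in the backfat values was not tested. Without Sample_731 the OAS2 difference in backfat was 0.92.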

How the data were processed

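The authors deposited raw expected counts of 25322 Ensembl pig genes and 36 libraries (total RNA, TruSeq RNA kit, both ends read for 100 nt, per the labels' protocols). Per the submitters' processing notes, the tools were GSNAP and HTSeq. Neither the build nor the annotation is given in the sources used here. Whether strand was kept is not stated, so a gene and an overlapping neighbour on the other strand may share reads. The deposited values are multiples of 0.5 (35.1% are not whole) and were rounded for all tests. The 5 lines naming no gene stayed out of library sizes; the largest, counts in no annotated gene, held 16.1% to 34.1% of a muscle library. Columns left unused numbered 0. A symbol was found for 11804 gene IDs in a table of current names. Whether each symbol fits the annotation used for counting could not be checked. The labels give an age of 16 to 17 days and the stage weaning, at odds with sampling 3 weeks later.

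Levels are counts-per-million (CPM) of the gene counts of a library. Overlap of groups was judged on these levels, without the trimmed-mean factors of the tests. The 18 muscle libraries were ranked by OAS2 CPM, and the highest 6 were compared with the lowest 6. Tests used edgeR 4.0.16 in R 4.3.3 (trimmed-mean factors, robust quasi-likelihood fit, default filter on low counts, Benjamini-Hochberg over all tested genes, threshold 0.05); OAS2 stayed in the fit and out of the counts. The SE was taken as the log2 difference over the root of the F statistic. DESeq2 1.42.0 and the other alternatives are given at the end. Backfat OAS2 was tested by an exact permutation of pigs. The tests were tried on simulated counts. Figures were drawn with Matplotlib 3.10.9.

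Named genes were to be the 12 called genes with a symbol and the largest difference in each direction (0 qualified), up to 4 genes of highest mean CPM per list, called genes of the interferon and antigen lists, MX1, and the 10 most like OAS2 in rank. Of the 29 lists, genes are named mainly for those on interferon and immune cells. The values of 1 tested interferon-induced gene are not reported here, though it stays in the counts and medians of its lists. Members and lists were chosen with earlier results of these data known. P values measure the spread between pigs.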

Additional observations from a re-analysis of the deposited data

Results flagged for a closer look

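Among 144 groups of 6 muscle libraries (72 genes, high-OAS2 and low-OAS2), 6 held 1 library farther from its neighbour than Dixon's 95% critical ratio allows; chance flags about 1 in 20 groups. In the high-OAS2 group Sample_242 was low in SP110, a nuclear body protein, at 4.21 CPM against 6.99 to 8.68 in the other 5 pigs, and in IFIT5, an RNA-binding interferon-induced gene, at 19.5 CPM against 30.6 to 39.7. Sample_572, which stood apart on the first principal component, was high in ART3 at 1158 CPM against 472 to 604, and in PLSCR4 at 22.4 CPM against 8.68 to 11.2. Sample_911 was high in NKG7, a gene of killer lymphocytes, at 10.8 CPM against 1.24 to 3.11. In the low-OAS2 group Sample_491 was high in the chaperone gene CALR at 338 CPM against 110 to 143.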

How the results depend on the processing

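At 6 against 6 in muscle, ENSSSCG00000009882 was called higher under every alternative run. The counts of 1 gene higher, 0 lower and 0 interferon-induced genes were the same with RLE factors, library totals alone, no filter, 3 levels over 18 libraries, 5 against 5, 9 against 9, the library total as a covariate, and without Sample_572 and Sample_735 (added after seeing the data). DESeq2 gave 27 higher, 2 lower and 11 interferon-induced genes, ranking by OAS2 after trimmed-mean scaling 9, 1 and 5, ranking by MX1 28, 1 and 17, and the slope on OAS2 26, 5 and 15. Leaving out each pig in turn gave 1 to 2, 0 to 1 and 0 to 1. For the slope (its own alternatives were added after seeing the data), DESeq2 gave 66, 12 and 28, the fit without Sample_572 and Sample_735 gave 39, 10 and 22, and leaving out each pig gave 1 to 44, 0 to 9 and 0 to 22. The causes were not tested. In backfat all counts were 0 in all settings run, and the OAS2 difference stayed between 0.83 and 1.17 without each pig (highest exact permutation p = 0.00649). No paired analysis was possible because the high-OAS2 and low-OAS2 groups hold different pigs. Library totals alone moved the median of all genes to -0.09. Of 1720 values of 72 genes, 26 changed sign, all uncalled. Some genes named above were not among these 72, such as PTX3, NR4A3, ATF3, VCAM1, JAK1, TYK2, TLR7 and IFNGR1. Library totals gave -0.0121 for CALR, -0.0377 for SLA-DMB, -0.0443 for SLA-DMA and -0.0614 for CD2. The 5 against 5 comparison gave -0.0164 for CALR, and 9 against 9 gave -0.121 for CALR, -0.0060 for PDIA3 and -0.131 for SLA-DMA. Ranking by scaled OAS2 gave 0.0159 for CTSS, and ranking by MX1 gave -0.164 for CALR, -0.0605 for PDIA3, -0.120 for SLA-DMB and -0.147 for SLA-DMA. The slope gave -0.0077 for CALR and -0.0148 for SLA-DMA. Leaving out each pig gave -0.158 to 0.215 for SLA-DMA, -0.0907 to 0.240 for SLA-DMB, -0.397 to 0.286 for CD2 and -0.0176 to 0.341 for CALR. IFNB1, IFNE and IFNK lay under the level that 3 counts would give, and the part of depth, annotation or mapping in this was not tested.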
